A study of Mus musculus with 28 samples.

Results

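The transcripts described here are made by RNA polymerase I (Pol I) or RNA polymerase III (Pol III), and 4 of them were chosen by symbol: Rn45s, Rn7sk, Rmrp and Rpph1. Of these, 3 were matched by their exact symbol among the 24984 genes of each table, and Rn7sk was not analysed here. Each has 1 entry per table. The assay was Bru-seq: living cells incorporate 5-bromouridine (BrU) into the RNA they are making, and an antibody then pulls down the labelled RNA for sequencing. The cells were mouse embryonic stem cells (mESCs), either WT or EloA null, where EloA is Elongin A, a factor that acts on elongation by RNA polymerase II (Pol II). In steady state, cells were given 2 mM BrU for 10 min. In the recovery conditions, cells first received 1 µM flavopiridol (FP), an inhibitor of the kinase CDK9, for 60 min, and BrU was present for 5 min or 10 min after the drug was removed. Each condition has 2 WT and 2 EloA null libraries, 12 in all. All cells grew on feeder fibroblasts in medium with LIF and the inhibitors PD0325901 and CHIR99021, and were freed of feeders before labelling. The cells are described as CCE28 mESCs for growth and as CJ7 mESCs for labelling, and whether the EloA null cells were 1 clone is not given in the sources used here.

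Pol I transcribes one kind of gene, the tandem ribosomal DNA repeats, in the nucleolus. Its product, listed here as Rn45s, is the long precursor that is cut and modified to give the 18S, 5.8S and 28S ribosomal RNAs. Pol III transcribes short genes, among them those for transfer RNA and 5S ribosomal RNA. Rmrp is the RNA of RNase MRP, an enzyme that cuts the ribosomal RNA precursor, and Rpph1 is the RNA of RNase P, which trims the leader from transfer RNA precursors. Rn7sk encodes 7SK RNA, which holds the kinase P-TEFb (CDK9 with a cyclin T) inactive. The Rmrp and Rpph1 genes belong to the Pol III genes whose promoters lie upstream of the first base, with an octamer-like distal element, a proximal element and a TATA-like box. Neither Pol I nor Pol III requires P-TEFb for elongation in the way Pol II does.

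In the GRCm38 assembly, which mm10 is built on, Rmrp spans chr4:43492785-43493059 (275 bases) and Rpph1 spans chr14:50807447-50807771 (325 bases), both on the minus strand and without introns. Both genes share their upstream DNA with a Pol II gene that is read the other way: Parp2, a poly(ADP-ribose) polymerase, starts 125 bases from Rpph1, and Ccdc107, a coiled-coil protein gene, starts 280 bases from Rmrp. These stretches are shown because the values of each pair are compared in a later paragraph. They come from the GRCm38 genome, run 5′ to 3′ on the strand of the Pol III gene and end at the base before its first transcribed base. Capitals mark TATAA or its reverse TTATA, and the octamer-like TTTGCAT or its reverse ATGCAAA.
Rpph1 upstream, chr14:50807772-50807896, minus strand: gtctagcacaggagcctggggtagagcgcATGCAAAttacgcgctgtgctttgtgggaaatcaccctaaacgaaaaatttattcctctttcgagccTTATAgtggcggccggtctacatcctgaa
Rmrp upstream, chr4:43493060-43493339, minus strand: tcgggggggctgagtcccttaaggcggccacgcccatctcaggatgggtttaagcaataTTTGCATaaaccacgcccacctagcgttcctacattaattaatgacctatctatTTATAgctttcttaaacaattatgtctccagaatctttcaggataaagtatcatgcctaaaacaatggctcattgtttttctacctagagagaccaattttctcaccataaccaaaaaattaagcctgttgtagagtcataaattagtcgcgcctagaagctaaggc
Upstream of Rpph1, TTATA lay 29 to 25 bases and ATGCAAA 96 to 90 bases before the first base of the RNA. Upstream of Rmrp, TTATA lay 167 to 163 bases and TTTGCAT 221 to 215 bases before it. In windows of 125 bases before the start of 32851 RefSeq promoters of GRCm38, TATAA was found on either strand in 12.3%, TTTGCAT in 1.94% and both in 0.365%. In windows of 280 bases around the same starts, these shares were 24.0%, 4.44% and 1.42%. The motifs do not overlap each other in these sequences, and a match describes letters only.

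Repeated copies bear on what each symbol holds. The ribosomal DNA is repeated in the genome while the tables list Rn45s once, and the authors kept uniquely aligned reads. The values of Rn45s fell on whole numbers of reads at a length of 5833 bases, which is shorter than the full precursor, and no GRCm38 position or sequence of Rn45s was used here. The labels state that ribosomal RNA was depleted before the libraries were made, so the Rn45s values refer to what that step left. For Rpph1, the annotation holds an RNase P RNA-like copy, Rprl3, at chr8:3803125-3803359. Its match to Rpph1 is shown because reads from one could be assigned to the other. Both sequences run 5′ to 3′ on the minus strand, and capitals mark bases that have no identical partner in the other sequence.
Rpph1, chr14:50807514-50807768: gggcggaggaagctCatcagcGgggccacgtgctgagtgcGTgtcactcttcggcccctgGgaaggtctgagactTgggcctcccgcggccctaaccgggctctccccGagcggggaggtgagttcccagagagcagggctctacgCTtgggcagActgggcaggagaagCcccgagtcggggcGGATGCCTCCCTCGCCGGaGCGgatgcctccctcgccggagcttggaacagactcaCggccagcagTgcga
Rprl3, chr8:3803126-3803359: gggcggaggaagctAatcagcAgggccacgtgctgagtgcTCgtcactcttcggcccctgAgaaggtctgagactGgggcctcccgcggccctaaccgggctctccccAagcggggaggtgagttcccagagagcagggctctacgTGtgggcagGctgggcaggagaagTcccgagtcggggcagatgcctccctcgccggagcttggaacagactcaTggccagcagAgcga
Over 234 paired bases, 221 (94.4%) were identical and 13 differed, and 21 bases of Rpph1 had no partner in Rprl3. Bases 4 to 258 of the 325 bases of Rpph1 were covered by the match. Of 2 other such copies, Rprl1 was listed at 0 in all 12 libraries and Rprl2 at 0 to 0.852 RPKM.

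The 12 libraries held between 9857526 and 28547356 reads by the steps between low values. The embryonic stem cell markers were over 0.5 RPKM for 8 of 8 genes in every library, with sums of 165 to 270.2 RPKM in WT and 149 to 238 RPKM in EloA null libraries. Of 8 feeder fibroblast markers, 0 to 2 were over 0.5 RPKM in WT libraries and 0 to 1 in EloA null libraries, with sums of 1.27 to 2.90 and 0.715 to 2.26 RPKM. Eloa, the targeted gene, was not lower in the libraries labelled EloA null. Its mean there was 1.65, 1.97 and 1.58 times that in WT in steady state, at 5 min and at 10 min. The genotypes did not overlap in any condition, as was the case in this direction for 32%, 15.4% and 33.5% of genes. By limma the adjusted p was 0.249 at 5 min and 0.176 at 10 min. In steady state the WT libraries had 1.17 RPKM ± 0.015 (SD, n = 2). The EloA null libraries had 1.92 RPKM ± 0.050 (SD, n = 2), with limma's Benjamini-Hochberg adjusted p = 0.0999, so directions below follow the labels. The first steady-state library titled EloA null has wild type as its genotype label, and its title decided the group. Its Eloa value was 1.96 RPKM, beside 1.89 RPKM in the other EloA null library.

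Rn45s was the gene with the highest RPKM (reads per kilobase of gene, scaled to the size of the library) in each of the 12 libraries. In steady state it had 1530.0 and 1637 RPKM in the WT libraries and 1797 and 1720.4 RPKM in the EloA null libraries. After 5 min of recovery it had 1855 and 1609.9 RPKM in WT and 1520.3 and 1427 RPKM in EloA null libraries. After 10 min it had 906 and 1028 RPKM in WT and 1310.5 and 1067 RPKM in EloA null libraries. The 4 lowest of the 12 values were thus those of 10-min recovery. Rn45s took between 0.528% and 1.08% of the library size so worked out, and with 99445 to 280522 reads its counting error was at most 0.317%, far under the spread between replicates.

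Rmrp rested on far fewer reads, 48 to 284 per library. Its steady-state levels were 23.6 and 10.3 RPKM in WT and 9.27 and 13.4 RPKM in EloA null libraries. At 5 min of recovery they were 104.8 and 29.9 RPKM in WT and 43.0 and 34.9 RPKM in EloA null libraries, so that the lowest of these 4 values lay above the highest steady-state value. At 10 min they were 24.0 and 7.91 RPKM in WT and 11.3 and 8.66 RPKM in EloA null libraries, within the steady-state range or just outside it. In each condition the first WT library was the highest of the 4. Among all listed genes, Rmrp ranked 6 in the first WT library of 5-min recovery and between 44 and 118 in the other 3, against 148 to 656 in steady state and 294 to 1627 at 10 min.

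Rpph1, with 66 to 231 reads per library, showed the same order of conditions. In steady state the WT libraries had 16.2 and 13.99 RPKM and the EloA null libraries 13.96 and 16.5 RPKM, and the genotypes overlapped. At 5 min of recovery the WT libraries had 70.9 and 31.1 RPKM and the EloA null libraries 48.8 and 41.1 RPKM. At 10 min the WT libraries had 19.5 and 9.21 RPKM and the EloA null libraries 14.9 and 11.7 RPKM. All 4 values at 5 min exceeded all 8 values of the other conditions. The exact Poisson 95% intervals drawn in the plot of RPKM by library cover counting error only, which ran from 5.93% to 14.4% of the value for Rmrp and from 6.58% to 12.3% for Rpph1.

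**Figure D1:**
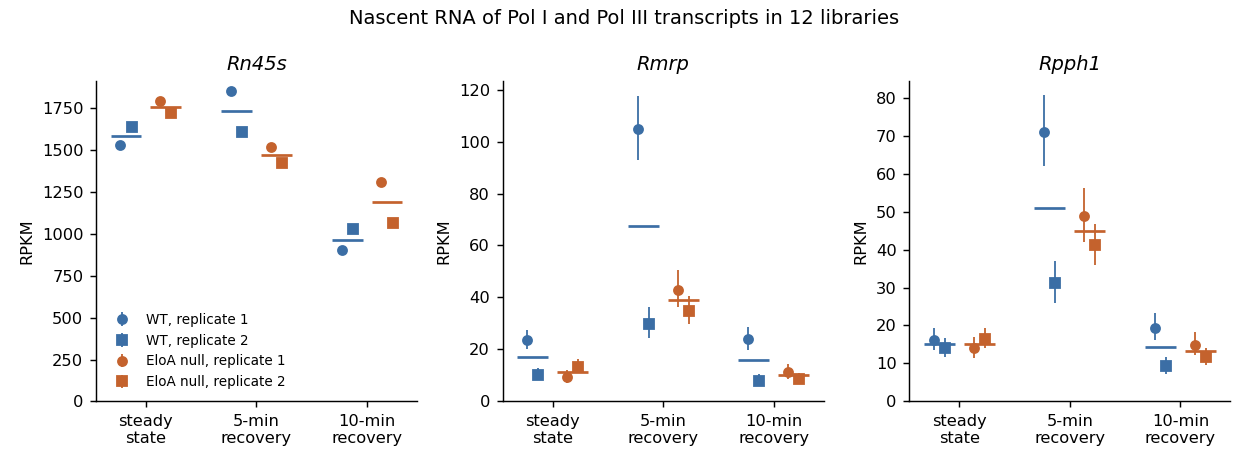
RPKM of Rn45s, Rmrp and Rpph1 (vertical axes) in the 12 libraries by condition (horizontal axis); circles and squares are replicates 1 and 2, horizontal bars are means of 2 libraries, and vertical lines are exact Poisson 95% intervals of the counting error. Rmrp and Rpph1 were highest at 5 min of recovery, up to 104.8 and 70.9 RPKM in the first WT library, and Rn45s was lowest at 10 min, from 906 to 1310.5 RPKM.

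Before the comparisons, the first WT library has to be set apart, in each condition for Rmrp and in recovery for Rpph1. The ratio of the first to the second WT library was 2.29 in steady state, 3.51 at 5 min and 3.03 at 10 min for Rmrp, whereas the median over the genes tested was 1.05, 1.09 and 1.06. Rmrp thus lay above 99.0%, 99.5% and 99.5% of these genes. None of the 92, 51 and 86 single-exon genes under 500 bases with at least 20 reads had a higher ratio. For Rpph1 the ratio was 1.16 in steady state, 2.28 at 5 min and 2.11 at 10 min, above 79.6%, 98.6% and 98.5% of genes. Rprl3 had 1.21, 2.81 and 2.07. In the EloA null libraries the ratio was 0.692, 1.23 and 1.30 for Rmrp and 0.846, 1.19 and 1.27 for Rpph1. Rn45s stayed between 0.881 and 1.23 in both genotypes. What set the first WT libraries apart was not tested.

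**Figure D2:**
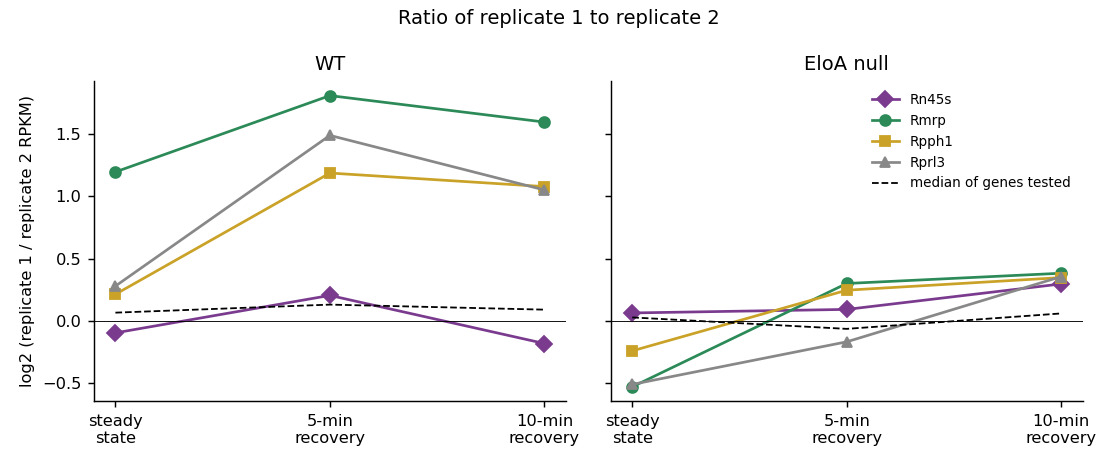
Log2 ratio of the RPKM in replicate 1 to that in replicate 2 (vertical axis) by condition (horizontal axis) in WT and EloA null libraries; symbols are single genes and the dashed line is the median of the genes tested. In WT, Rmrp lay at ratios of 2.29 to 3.51, far above the median, while Rn45s stayed near it.

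How the transcripts behaved as Pol II was released from FP was described by the ratio of mean RPKM in recovery to that in steady state. The scaling between the 3 tables is not given in the sources used here, and the BrU pulse was shorter at 5 min, so these ratios carry no test and are set beside those of all genes over 0.5 RPKM in both tables. Rmrp was 3.97-fold higher at 5 min than in steady state in WT libraries and 3.44-fold higher in EloA null libraries. On the log2 scale the WT difference was 1.99 ± 1.28 (SD, n = 2), and that of EloA null libraries 1.78 ± 0.21 (SD, n = 2). In WT the first library alone was 6.19-fold and the second 1.76-fold above the steady-state mean. In EloA null cells the libraries were 3.80-fold and 3.08-fold above it, which is the closer pair. With the first WT library of both conditions left out, Rmrp was 2.90-fold higher at 5 min in WT.

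Rpph1 was 3.37-fold higher at 5 min in WT and 2.95-fold higher in EloA null libraries. The single libraries were 4.69-fold and 2.06-fold above the steady-state mean in WT, and 3.20-fold and 2.70-fold above it in EloA null cells. With the first WT libraries left out, Rpph1 was 2.22-fold higher in WT. Over all genes the median ratio was 0.801 in WT (8306 genes) and 0.764 in EloA null libraries (8043 genes). Past 1.5-fold higher lay 17.5% of the genes in WT and 17.5% in EloA null libraries, and the libraries of the conditions did not overlap, with recovery higher, for 28.1% and 26.5%. Both transcripts were past 1.5-fold and without overlap in both genotypes. In WT, 68 genes had a higher ratio than Rmrp and 141 a higher ratio than Rpph1, and in EloA null libraries 147 and 255 did. Against the single-exon genes under 500 bases with at least 20 reads, 80 in WT and 83 in EloA null libraries, 0 genes had a higher ratio than Rmrp and 1, Rmrp itself, a higher ratio than Rpph1 in either genotype. This group has Rmrp and Rpph1 among its genes, and its median ratio was 0.897 in WT and 0.807 in EloA null libraries.

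Rprl3, the RNase P RNA-like copy, moved with Rpph1 on 13 to 44 reads per library. It was 2.34-fold higher at 5 min in WT and 2.55-fold higher in EloA null libraries. The ratio of Rpph1 to Rprl3 within a library ran from 3.40 to 4.25 in steady state, from 3.83 to 5.83 at 5 min and from 3.70 to 4.18 at 10 min. How many of these reads came from Rpph1 was not tested.

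At 10 min the Pol III transcripts were close to their steady-state level. Rmrp was at 0.941 of it in WT and 0.880 in EloA null libraries, and Rpph1 at 0.949 and 0.876. The libraries of the conditions overlapped for both transcripts in both genotypes. With the first WT libraries left out, Rmrp was at 0.769 and Rpph1 at 0.658 of the steady-state level in WT. Over all genes the median ratio at 10 min was 1.18 in WT (9261 genes) and 1.19 in EloA null libraries (9515 genes), so both transcripts lay under it, above 36.8% and 37.3% of genes in WT and above 33.1% and 32.8% in EloA null libraries.

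Rn45s followed another course. At 5 min it was at 1.09 times its steady-state level in WT, where the libraries overlapped, and at 0.838 times in EloA null libraries, where they did not. Recovery was lower without overlap for 56.5% of genes in that comparison. The direction at 5 min depends on the scaling and the libraries. Centred on the median of all genes, the log2 ratio of Rn45s in EloA null libraries turned from -0.26 to 0.13, and without the first WT libraries that in WT turned from 0.13 to -0.024. At 10 min it was at 0.611 times in WT and 0.676 times in EloA null libraries, with no overlap in either genotype. Recovery was lower without overlap for 31.9% of genes in WT and 32.6% in EloA null libraries, and lower by more than 1.5-fold for 18.3% and 18.9%, a limit that the mean ratio of Rn45s passed in WT and not in EloA null libraries. A lower ratio than that of Rn45s was found for 14.5% of genes in WT and 19.5% in EloA null libraries. RPKM is scaled to the size of the library, so these values say nothing about the amount of precursor per cell. In bulk RNA, fewer cells that make a transcript and less of it per cell cannot be told apart.

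**Figure D3:**
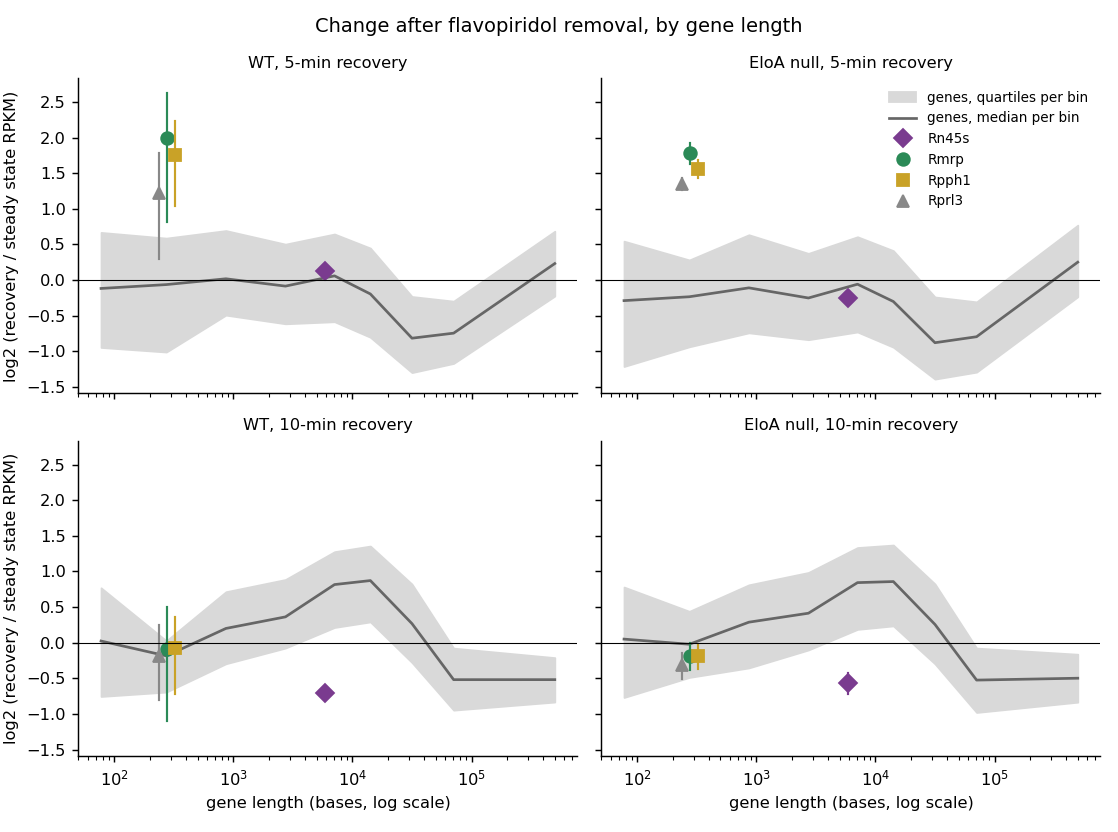
Log2 ratio of mean RPKM in recovery to that in steady state (vertical axes) against gene length in bases (horizontal axes, log scale), for each genotype and recovery time; the line and band are the median and quartiles of all genes in 9 bins of length, symbols are single genes and vertical lines join their 2 libraries. At 5 min Rmrp (3.97-fold in WT) and Rpph1 (3.37-fold) lay above the band and Rn45s within it, and at 10 min Rn45s (0.611-fold in WT) lay below it.

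The question of whether loss of EloA changed these transcripts was asked within each table by limma on log2(RPKM + 0.1). No transcript passed an adjusted p of 0.05 in any condition in this fit, which has no replicate block. Over all genes 0 of 11345 (0%) passed in steady state, 0 of 8984 (0%) at 5 min and 0 of 10239 (0%) at 10 min by limma. At an unadjusted p under 0.05, 18.4%, 9.42% and 20.5% of the genes passed, and none of the 3 transcripts did in any condition.

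For Rn45s the genotypes did not overlap in any condition, with the EloA null libraries higher in steady state, lower at 5 min and higher at 10 min. Such a lack of overlap was found in the same direction for 32% of genes in steady state, 25% at 5 min and 33.5% at 10 min. The log2 difference of EloA null minus WT was 0.15 (SE 0.16, limma adjusted p = 0.630) in steady state. It was -0.23 (SE 0.13, limma adjusted p = 0.651) at 5 min and 0.29 (SE 0.12, limma adjusted p = 0.275) at 10 min. The mean RPKM in EloA null libraries was 1.11, 0.851 and 1.23 times that in WT. The 95% intervals of the fold were 0.833 to 1.48, 0.682 to 1.07 and 0.977 to 1.54, so a rise or fall of over 1.54-fold lay outside all 3. The change of sign between conditions was tested as an interaction in 1 fit of all 12 libraries, chosen after the values were seen. The genotype difference at 5 min was lower than in steady state by a log2 difference of -0.38 (SE 0.21, limma adjusted p = 0.818). That at 10 min was higher than at 5 min by 0.52 (SE 0.21, limma adjusted p = 0.840, unadjusted p = 0.0377).

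Rmrp had a log2 difference of -0.48 (SE 0.45, limma adjusted p = 0.593) in steady state, -0.53 (SE 0.59, limma adjusted p = 0.832) at 5 min and -0.47 (SE 0.55, limma adjusted p = 0.645) at 10 min. The genotypes overlapped in each condition. Without the first WT library the log2 difference turned to 0.11 in steady state, 0.38 at 5 min and 0.32 at 10 min, and without the second WT library it was -1.07, -1.43 and -1.27. The 95% intervals of the fold ran from 0.315 to 1.63 in steady state, from 0.246 to 1.96 at 5 min and from 0.263 to 1.97 at 10 min, so that neither a fall to 0.315 nor a rise of 1.63-fold was distinguishable from no change with these libraries.

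Rpph1 had a log2 difference of 0.011 (SE 0.14, limma adjusted p = 0.976) in steady state, -0.067 (SE 0.41, limma adjusted p = 0.975) at 5 min and -0.015 (SE 0.38, limma adjusted p = 0.988) at 10 min, with overlap in each condition. The steady-state 95% interval of the fold was 0.777 to 1.31. At 5 min and 10 min the intervals were wider, 0.465 to 1.96 and 0.489 to 2.00. Without the first WT library the log2 difference was 0.53 at 5 min and 0.52 at 10 min, and without the second it was -0.66 and -0.55.

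The chromosome of Rpph1 gives this value a particular setting. The log2 differences of the 409 genes tested on chromosome 14 had a median of 0.50 (quartiles 0.36 and 0.69) in steady state, against 0.024 for the 10936 other genes. At 5 min the medians were 0.46 (344 genes) and -0.071 (8640 genes), and at 10 min 0.51 (380 genes) and 0.048 (9859 genes). Of the chromosome 14 genes, 9 of 409 lay below Rpph1 in steady state, 24 of 344 at 5 min and 13 of 380 at 10 min. The steady-state 95% interval of Rpph1, -0.36 to 0.39 on the log2 scale, did not reach the chromosome's median, while the intervals at 5 min and 10 min, -1.10 to 0.97 and -1.03 to 1.00, did. No test of Rpph1 against the chromosome was made.

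**Figure D4:**
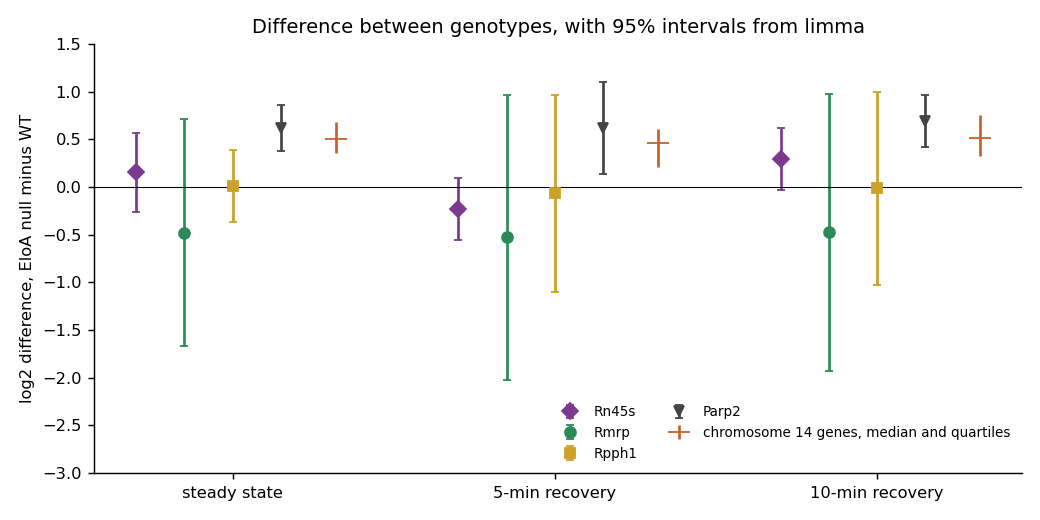
Log2 difference of EloA null minus WT (vertical axis) for Rn45s, Rmrp, Rpph1 and Parp2 in the 3 conditions (horizontal axis), with 95% intervals from limma, beside the median and quartiles of the genes on chromosome 14. All intervals of Rn45s, Rmrp and Rpph1 included 0, while Parp2 lay at 0.62, 0.62 and 0.69 and the chromosome's median at 0.50, 0.46 and 0.51.

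Parp2, which shares its upstream DNA with Rpph1, had 2.50 and 2.30 RPKM in WT and 3.83 and 3.65 RPKM in EloA null libraries in steady state. At 5 min it had 2.44 and 1.84 RPKM in WT and 3.28 and 3.35 RPKM in EloA null libraries. At 10 min it had 5.88 and 5.77 RPKM in WT and 10.1 and 8.96 RPKM in EloA null libraries. The genotypes did not overlap in any condition, as was the case in this direction for 32% of genes in steady state, 15.4% at 5 min and 33.5% at 10 min, and the log2 difference was 0.62 (SE 0.089, limma adjusted p = 0.106), 0.62 (SE 0.19, limma adjusted p = 0.471) and 0.69 (SE 0.10, limma adjusted p = 0.0986). The ratio of Rpph1 to Parp2 within a library does not depend on how the tables were scaled. In steady state it was 6.48 and 6.07 in WT and 3.64 and 4.53 in EloA null libraries. At 5 min it was 29.0 and 16.9 in WT and 14.9 and 12.3 in EloA null libraries. At 10 min it was 3.31 and 1.60 in WT and 1.49 and 1.31 in EloA null libraries. The EloA null ratios were thus lower without overlap in each condition, at 0.647, 0.610 and 0.608 of the WT ratio. The exact two-sided permutation test gave p = 0.333 in each condition, the smallest p that 2 against 2 libraries allow, with an adjusted p of 0.8 over 12 tests of ratios. Rpph1 was higher at 5 min while Parp2 was at 0.890 of its steady-state level in WT and 0.886 in EloA null libraries. At 10 min Parp2 was 2.42-fold and 2.54-fold above it, and Rpph1 was back near it. Parp2 spans 13405 bases, far more than Rpph1. Over genes of 10000 to 20000 bases, the median log2 ratio at 5 min was -0.20 in WT and -0.30 in EloA null libraries. At 10 min this median was 0.87 and 0.86. Whether the pair differed beyond gene length was not tested.

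Ccdc107, the divergent neighbour of Rmrp, had low values, 0.382 and 0.735 RPKM in WT and 0.789 and 0.877 RPKM in EloA null libraries in steady state. It was under 0.5 RPKM in all 4 libraries at 5 min, between 0.135 and 0.231 RPKM, where Rmrp was at its highest. The ratio of Rmrp to Ccdc107 was 61.8 and 13.99 in WT and 11.8 and 15.3 in EloA null libraries in steady state. At 5 min it was 453 and 221 in WT and 225 and 212 in EloA null libraries, and at 10 min 37.6 and 14.6 in WT and 16.5 and 10.1 in EloA null libraries. The genotypes overlapped in each condition (exact permutation p = 0.667 in each). Arhgef39, farther along the same chromosome, stayed under 0.5 RPKM in all libraries. C920006O11Rik was the nearest neighbour of Rn7sk with values. In steady state its means were 1.03 RPKM in WT and 1.31 RPKM in EloA null libraries (limma adjusted p = 0.376). They were 1.00 and 1.48 RPKM at 5 min (limma adjusted p = 0.540) and 1.60 and 2.32 RPKM at 10 min (limma adjusted p = 0.193). The EloA null libraries were higher without overlap in each condition, as they were for 32%, 15.4% and 33.5% of all genes.

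**Figure D5:**
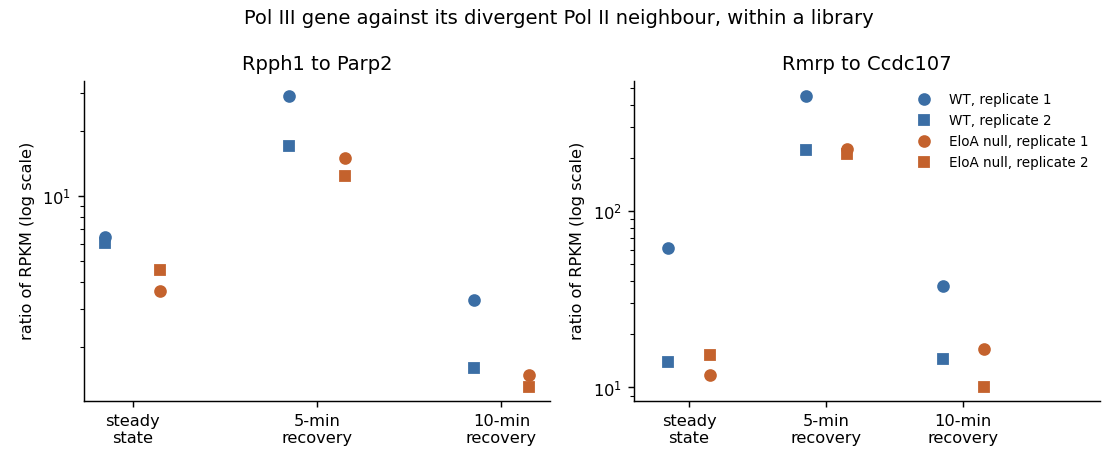
Ratio of the RPKM of Rpph1 to Parp2 and of Rmrp to Ccdc107 within a library (vertical axes, log scale) by condition (horizontal axis); circles and squares are replicates 1 and 2. Both ratios were highest at 5 min of recovery, and the EloA null ratios of Rpph1 to Parp2 lay below the WT ratios in each condition, between 1.31 and 14.9 against 1.60 and 29.0.

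The 2 Pol III transcripts were at like levels per length, and their order differed between libraries. The ratio of Rmrp to Rpph1 was above 1 in the 3 first WT libraries, from 1.23 to 1.48, and below 1 in the other 9 libraries, from 0.664 to 0.960. Between genotypes the log2 ratio differed by -0.49 in steady state, where they overlapped (exact permutation p = 0.667). It differed by -0.46 at 5 min and -0.46 at 10 min, without overlap, with an exact permutation p of 0.333 in both, the smallest possible. Without the first WT library these differences were -0.0021 in steady state, -0.15 at 5 min and -0.20 at 10 min. The level of Rn45s was 78.2 to 158 times the geometric mean of both Pol III transcripts in steady state, 21.5 to 52.8 times at 5 min and 42.0 to 120.4 times at 10 min. The genotypes overlapped in each condition (exact permutation p = 0.667, 1 and 1).

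Over the 12 libraries, Rmrp and Rpph1 were the most alike of the transcripts, with a Pearson r of 0.95 on log2(RPKM + 0.1). Of 5073 genes with a mean over 1 RPKM in each of the 6 groups, Rpph1 was the gene most like Rmrp, followed by Rprl3 (r = 0.95) and Vac14 (r = 0.95). Hist2h2bb, a histone H2B gene, was most like Rpph1 (r = 0.98), followed by Rprl3 (r = 0.97) and Clec16a (r = 0.96). Rn45s was less like either, with r = 0.35 to Rmrp and 0.44 to Rpph1, and most like Tcf20 (r = 0.93), Ccdc88c (r = 0.92) and Rreb1 (r = 0.92). These are descriptions. The points share the condition, the pulse and the library, and the median r over the genes was -0.58 for Rn45s, -0.42 for Rmrp and -0.47 for Rpph1.

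Other RNAs of the same polymerases were sparse in these tables. Of 13 other Pol III RNA genes listed, 7 were matched by symbol and 3, 2 and 5 were over the limit in steady state, at 5 min and at 10 min, with 0 called between genotypes in each. At 5 min the 2 that were expressed in both tables were Rprl3 and Rnu6, a U6 small nuclear RNA gene. Both were past 1.5-fold higher in both genotypes, where 17.5% of all genes were in each. Rnu6 was higher by 2.86-fold in WT and 4.91-fold in EloA null libraries. Bc1, over 0.5 RPKM in steady state, went the other way and fell under this limit at 5 min. In WT it had 0.567 and 0.560 RPKM in steady state and 0.402 and 0.412 RPKM at 5 min. In EloA null libraries it had 0.578 and 0.667 RPKM, then 0.356 and 0.431 RPKM. In steady state Rnu6 had 4.65 and 2.65 RPKM in WT and 1.60 and 5.30 RPKM in EloA null libraries. Its number of reads was not worked out here, so the counting error of its values and ratios is not known. Between genotypes the log2 difference of Rnu6 was -0.25 in steady state and 0.79 at 5 min, both with overlap. At 10 min Rnu6 had 11.8 and 13.4 RPKM in WT and 1.86 and 3.89 RPKM in EloA null libraries, a log2 difference of -2.18 (SE 0.36, limma adjusted p = 0.110), and was 3.46-fold above its steady-state level in WT and at 0.833 of it in EloA null libraries. The mature ribosomal RNA genes and another precursor symbol were not analysed here. Among genes listed by symbol as small RNAs of Pol II, and the telomerase RNA Terc, 5 of 17 were matched. Terc, a Pol II transcript, was 2.31-fold higher at 5 min in WT and 1.31-fold higher in EloA null libraries. Rnu7, the U7 small nuclear RNA of histone mRNA processing, was listed at 0 in 3 of the 4 steady-state libraries and at 1.43 RPKM in the second WT library, and it had 6.32 to 8.12 RPKM at 5 min and 4.25 to 16.3 RPKM at 10 min over both genotypes. All 8 recovery values of Rnu7 lay above all 4 steady-state values, and its low steady-state level gives no reliable fold. Rnu73b was at 1.19 in WT and 0.724 in EloA null libraries at 5 min, and Rnu11 at 1.12 in WT. In EloA null libraries the mean of Rnu11 went from 1.03 RPKM in steady state to 0.268 RPKM at 5 min. Of these genes over 0.5 RPKM in both conditions, 2 of 4 in WT and 0 of 2 in EloA null were past 1.5-fold higher. The share over all genes was 17.5% in each genotype, and counts this small cannot be told from it. The 2 in WT were Rnu7 and Terc. Higher values at 5 min were thus also found among some Pol II small RNA genes. They were found for Rnu7 in both genotypes, and past 1.5-fold for Terc in WT only.

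The genes for proteins that work with these transcripts were not called between genotypes in any condition. For the 11 proteins of RNase P and RNase MRP, the median log2 difference was 0.065 in steady state, -0.013 at 5 min and 0.31 at 10 min, against 0.033, -0.060 and 0.059 over all genes, and 3, 2 and 4 of them were past 1.5-fold higher in EloA null libraries, where 7.21%, 5.4% and 9.41% of all genes were. Past 1.5-fold lower were 1, 0 and 0 of them. In steady state 4 were higher without overlap, where 32% of all genes were, and 4 were lower. The shares of all genes past 1.5-fold lower, and of those lower without overlap in steady state, were not worked out. For the Pol I subunits and factors, 15 matched and the other 3 of 18 symbols being newer names of the same genes, the medians were 0.050, -0.12 and 0.078, and 0 passed 1.5-fold higher. For the Pol III subunits and factors, 28 of 28 matched, they were -0.043, -0.069 and 0.0047, and 2, 0 and 2 were past 1.5-fold higher. For the 7SK particle and P-TEFb, 7 of 7 matched, they were -0.029, 0.089 and 0.16, and 0 passed 1.5-fold higher. Of all these genes 3 lie on chromosome 14: Rpp14, a protein of RNase P, at 0.78, 0.56 and 0.80; Polr3a, the largest Pol III subunit, at 0.54, 0.51 and 0.58; and Polr3d, another subunit, at 0.44, 0.053 and 0.29. The 3 genes lay above 0 in all 3 conditions. So did 400 of 409 chromosome 14 genes in steady state, 314 of 344 at 5 min and 366 of 380 at 10 min. Rpph1 on the same chromosome lay at 0.011, -0.067 and -0.015.

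The genes for Pol I and Pol III went both ways in recovery. At 5 min the median log2 ratio to steady state was -0.64 in WT and -0.92 in EloA null libraries for the Pol I list, and -0.41 and -0.74 for the Pol III list, against -0.32 and -0.39 over all genes. For the proteins of RNase P and RNase MRP it was -0.28 and -0.47. The lists were not matched to all genes by length, and the ratios differed with length. In WT at 5 min the median was 0.059 for genes of 5000 to 10000 bases and -0.82 for genes of 20000 to 50000 bases. It was 0.23 for genes over 100000 bases. Of the Pol I genes over 0.5 RPKM in both tables, 2 of 15 in WT were past 1.5-fold higher at 5 min and 8 past 1.5-fold lower, and in EloA null libraries 2 and 9 of 15 were. Of the Pol III genes, 5 of 22 in WT were higher and 10 lower, and in EloA null libraries 4 and 11 of 21 were. Over all genes, 17.5% in WT and 17.5% in EloA null libraries were past 1.5-fold higher at 5 min. The share of all genes past 1.5-fold lower was not worked out, so the lower counts are not read as a trait of these lists. Among the higher Pol I and Pol III genes were Znrd1, a Pol I subunit, at 9.51-fold in WT and 11.2-fold in EloA null libraries, and Polr3f, a Pol III subunit, at 1.80-fold and 2.06-fold. At 10 min the medians were 0.59 and 0.52 for the Pol I list and 0.37 and 0.23 for the Pol III list, against 0.24 and 0.25 over all genes. Polr3a was at 0.465 of its steady-state level in WT and 0.457 in EloA null libraries at 5 min, when Rmrp and Rpph1 were above theirs.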

How the data were processed

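Bru-seq libraries were analysed from 3 tables, 1 per condition; 16 CUT&RUN-seq and ChIP-seq samples were not analysed here. The authors aligned paired-end reads to mm10 and dm3 with Bowtie2 2.3.4.3 (per the submitters' processing notes), kept uniquely aligned reads, counted them in RefSeq genes with featureCounts 1.6.1, normalized them with edgeR and deposited RPKM values without pooling replicates. The use of strand in this counting and the scaling between tables are not given in the sources used here. The deposited mean and fold columns were not used.

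Members and gene lists were chosen with earlier results of these data known. Genes with a mean RPKM over 0.5 in either genotype were tested with limma 3.58.1 (R 4.3.3) with a trend on log2(RPKM + 0.1), which understates changes of low genes, within each table, and p-values were adjusted over all genes by Benjamini-Hochberg. limma and the recovery of library sizes from steps between low values were tested on simulated data. Between 87.0% and 88.7% of single-exon genes gave whole reads within 0.01. Library sizes of 9857526 to 28547356 reads set the counting error. For single ratios an exact permutation test, two-sided, was used. A repeated symbol removed 4 entries. Named genes were the members, their neighbours within 5 kb, the listed genes, the 3 genes most like each member and Eloa. Sequences were read from GRCm38 with samtools, and Rpph1 and Rprl3 were aligned with Biopython 1.88. Nothing states that replicates were separate cultures, so p-values measure the spread between these libraries only. Alternatives comprised another pseudocount, filter, centring, quantile normalization, robust variances, a fit of 12 libraries, a replicate block and leaving out each library.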

Additional observations from a re-analysis of the deposited data

Results flagged for a closer look

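The genotype difference of Rn45s changed direction between conditions. Both EloA null libraries were above both WT libraries in steady state, below them at 5 min of recovery and above them at 10 min. The difference between steady state and 5 min was -0.38 on the log2 scale (limma interaction adjusted p = 0.818) and that between 5 min and 10 min was 0.52 (limma interaction adjusted p = 0.840). Neither passed the threshold after adjustment over 11973 genes, of which 12 and 11 did.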

How the results depend on the processing

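Under all alternatives Rmrp and Rpph1 did not pass the threshold in any condition, and the adjusted p of the genotype tests ran from 0.227 to 0.927 for Rmrp and from 0.261 to 1 for Rpph1. Rn45s passed it once: with the replicate block at 5 min its log2 difference of -0.23 had a limma adjusted p of 0.00985. The numbers were not taken as pairs, since the labels name no shared batch and each table has only 2 pairs; same-numbered deviations correlated at 0.101, 0.119 and 0.103 across genes in steady state, at 5 min and at 10 min. With quantile normalization Rn45s has no value, because it is the top gene of each library. The log2 difference of Rpph1 in steady state was -0.049 when centred on the median and -0.075 with quantile normalization. Leaving out 1 library gave log2 differences of 0.10 to 0.20, -0.33 to -0.13 and 0.14 to 0.44 for Rn45s, of -1.07 to 0.11, -1.43 to 0.38 and -1.27 to 0.32 for Rmrp, and of -0.11 to 0.13, -0.66 to 0.53 and -0.55 to 0.52 for Rpph1, in steady state, at 5 min and at 10 min.

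Genes called between genotypes were 0 in each table. They numbered 81, 29 and 26 with robust variances, 131, 500 and 366 in the fit of all 12 libraries, 128 at 5 min with the replicate block, and 5, 12 and 6 at 10 min with a pseudocount of 1, centring and quantile normalization. Leaving out 1 library gave 0 to 0, 0 to 60 and 0 to 33, with 47 and 60 at 5 min without the first or second WT library, 39 without the first EloA null library, and 31 and 33 at 10 min without the first or second EloA null library. The cause was not tested.

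For recovery against steady state, centring on all genes gave Rn45s log2 ratios of 0.45 (WT) and 0.13 (EloA null) at 5 min and -0.95 and -0.81 at 10 min, and centring on genes under 5 kb gave -0.012 in EloA null at 5 min and -0.98 and -0.89 at 10 min. In EloA null at 5 min Rmrp was at 2.17 and 2.03 and Rpph1 at 1.95 and 1.81 under these centrings. At 10 min Rpph1 was at -0.44 and -0.51, and Rmrp at -0.51 with genes under 5 kb. Leaving out 1 library at 5 min gave 0.82 to 2.71 and 1.54 to 2.07 for Rmrp, 1.04 to 2.23 and 1.43 to 1.69 for Rpph1, and 0.024 to 0.23 and -0.30 to -0.21 for Rn45s, in WT and EloA null. Without the first WT library of both conditions, chosen after seeing the data, Rn45s in WT was at -0.024 at 5 min. At 10 min leaving out 1 library gave -1.10 to 0.63 and -0.43 to 0.11 for Rmrp, -0.71 to 0.36 and -0.38 to -0.027 for Rpph1, and -0.81 to -0.62 and -0.72 to -0.42 for Rn45s. Ratios within a library without 1 library differed between genotypes by -0.99 to -0.0021, -0.77 to -0.15 and -0.72 to -0.20 for Rmrp to Rpph1, and by -0.013 to 0.79, -0.58 to 0.71 and -0.22 to 1.30 for Rn45s to the Pol III transcripts; the block gave the same values as no block. With at least 48 and 66 reads per library, depth set a counting error of at most 14.4% for Rmrp and 12.3% for Rpph1, while WT replicates differed by up to 3.51-fold and 2.28-fold.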
